A study of Mus musculus with 30 samples.

Results

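The embryonic dorsal pancreas of NMRI mice at embryonic day 14.5 (e14.5) was compared with that at e12.5 and with that at e16.5, to find the genes whose RNA stood above both ends, or below both ends, of the interval over which the bud forms its acinar, ductal and endocrine cells. The comparison took 18 of the 30 arrays of the series, chosen by their labelled stage: 2 arrays of each of the 3 stages on each of 3 Affymetrix chips (A, B and C of MG-U74, version 2). Where a replicate was left out, that replicate number of the stage was taken out on all 3 chips at once. Arrays of e13.5 and e15.5 gave the neighbouring levels and entered the estimate of the spread. The groups differed by stage alone in the labels. All were untreated embryos of time-mated NMRI mice, dissected without the ventral pancreas and pooled by litter. The number of litters or embryos in a pool, and their sexes, are not given in the sources used here.

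Both arrays of a stage on a chip were separate labelling reactions of 1 pool. The p-values therefore measure the spread between labelling reactions, which is technical. Stage and pool cannot be told apart. In whole buds, fewer cells of a type and less RNA per cell also cannot be told apart. Values are log2 expression per probe set, so a change of 1 is 2-fold, and levels were not compared between genes. They were compared between chips only in choosing the brightest probe set of a gene, although the medians of the chips differ. There were 12422 probe sets on chip A, 12411 on chip B and 11868 on chip C. The medians of the arrays were 5.71 to 5.76 on chip A, 5.26 to 5.31 on chip B and 3.99 to 4.02 on chip C, and the largest difference between both reactions of a stage was 0.56 to 0.88, depending on stage and chip. The labelled tissue was borne out by its defining genes at e14.5: the preproinsulin gene Ins2 had a mean of 10.75, glucagon (Gcg) 12.22 and the acinar factor Ptf1a 8.04, all far above the median of their chip.

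In the mouse bud, endocrine cells arise from epithelial progenitors that switch on the basic helix-loop-helix factor Neurog3 for a short time. Neurog3 binds E-box motifs and turns on further factors, among them Neurod1, Insm1, Nkx2-2 and Pax4, after which it is shut off again. Notch signals from neighbouring cells hold it back. Hormone and digestive enzyme genes build up later, as the cells mature.

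A probe set was called where its adjusted p was under 0.05 and its change 2-fold or more. Against e12.5, 105 of 36701 probe sets were higher at e14.5 (0.286%) and 121 were lower (0.33%). Against e16.5, 277 were higher at e14.5 (0.755%) and 296 were lower (0.807%). Both comparisons use the same e14.5 arrays. A probe set was counted as a peak where e14.5 was called above both ends and as a dip where it was called below both, and its size is the smaller of both changes. There were 7 peaks (0.0191%) and 1 dip (0.00272%). With 1 probe set per gene, 4 of 15964 genes were peaks (0.0251%) and none was a dip.

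The 7 peaks were probe sets of Chgb, Cym, Neurog3, Myb, Prdm16 and Blvrb, and 1 that is unnamed here. The 1 dip was a probe set annotated to Polr3k. With a minimum of 1.5-fold there were 33 peaks (0.0899%) and 5 dips (0.0136%), and with no minimum beyond the adjusted p there were 452 peaks (1.23%) and 272 dips (0.741%). By gene, 18 were peaks (0.113%) and 3 were dips (0.0188%) at 1.5-fold. In the single comparisons, 0.986% of probe sets were called higher and 2.01% lower than at e12.5 with the 1.5-fold minimum and the same adjusted p, and 4.32% and 2.11% than at e16.5. Of the 33 peaks, 25 were highest at e14.5, 5 at e13.5 and 3 at e15.5, and all 5 dips were lowest at e14.5. With no fold minimum, 316 of the 452 peaks were highest at e14.5, 56 at e13.5 and 80 at e15.5. Of the 272 dips, 216 were lowest at e14.5, 36 at e13.5 and 20 at e15.5. A probe set above or below both ends thus need not have its extreme at e14.5. Just inside the 2-fold limit lay the Blvrb probe set with a smaller change of 1.03. Just outside it lay an unnamed probe set (97317_at, 0.93) and a chip C probe set of Neurog3 (0.89) among the peaks, and Tyrobp (-0.86) among the dips.

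**Figure D1:**
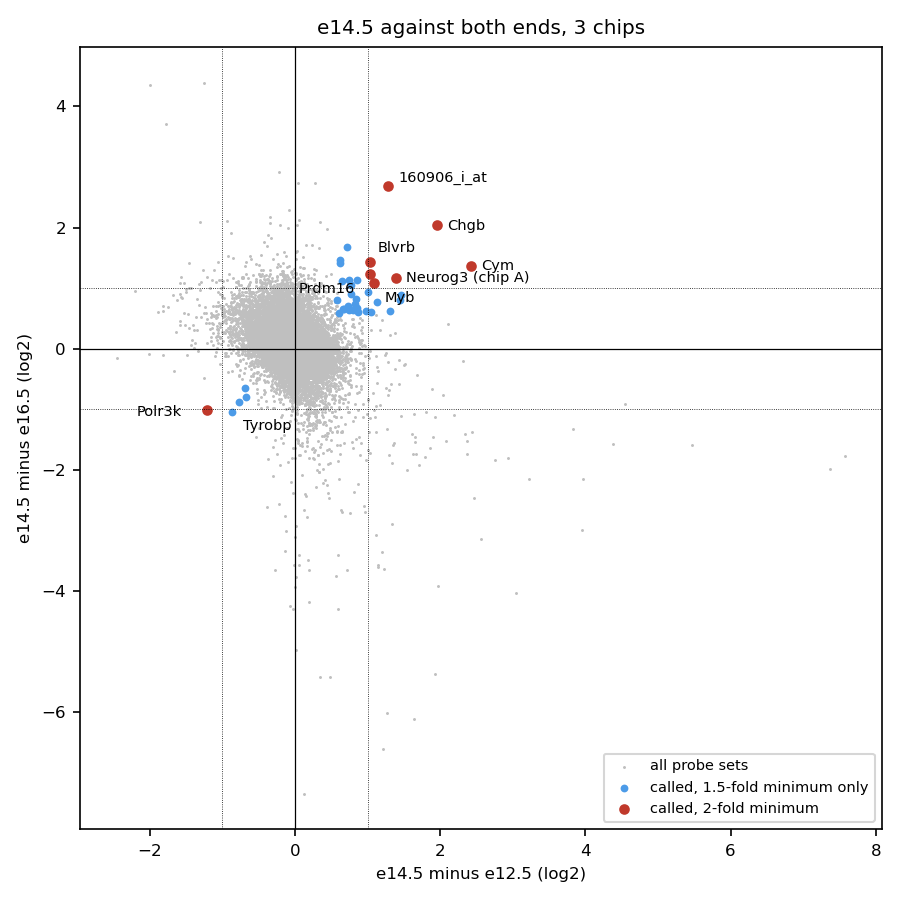
Change of each probe set at e14.5 against e12.5 (x axis, log2) and against e16.5 (y axis, log2), with dotted lines at 2-fold. Red points are the 7 peaks, in the upper right corner, and the 1 dip, in the lower left, and blue points are those added with a 1.5-fold minimum.

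Neurog3 itself was measured by 2 probe sets, and both were highest at e14.5. On chip A (99814_at; gene at chr10:62133090-62134763, GRCm38.p6) it read 6.37 and 6.44 at e12.5, 7.62 and 7.45 at e13.5, 7.76 and 7.81 at e14.5, 7.10 and 7.12 at e15.5, and 6.56 and 6.69 at e16.5. The e14.5 arrays were above every array of both ends, and the levels of both ends lay close together. e14.5 was 1.39 ± 0.07 (SE) above e12.5, or 2.61-fold (limma adjusted p = 2.27e-07), and 1.16 ± 0.07 above e16.5, or 2.24-fold (limma adjusted p = 3.7e-07). On chip C (168070_at) e14.5 had 7.89 and 8.02, against 6.36 and 6.62 at e12.5 and 7.11 and 7.02 at e16.5. There the change was 1.46 ± 0.09 against e12.5 and 0.89 ± 0.09 against e16.5, so that this probe set, which has the higher mean value and stands for the gene in counts of genes, was a peak with the 1.5-fold minimum and missed the 2-fold one. With the mean over the probe sets of a gene on each chip in place of the brightest, Neurog3 on chip A was among the 4 genes that were 2-fold peaks.

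The bases before the start sites of Neurog3 and of 4 further peak genes are shown because these genes were high together at e14.5 and Neurog3 and Neurod1 encode proteins that bind E-boxes. Each sequence holds the 250 bases before the annotated start in RefSeq, GRCm38.p6, 5′ to 3′ on the strand of the gene. The table used holds 1 start for each of these 5 genes, and that of Nkx2-2 lies within its annotated span (chr2:147176485-147195434), so a gene may have further starts not searched here. Capitals mark a match to the E-boxes CAGATG or CAGGTG on either strand (CATCTG and CACCTG on the other). Other forms of the E-box were not searched and are left in lower case, so a sequence without capitals can still hold an E-box.
Neurog3 (chr10:62132840-62133089, plus strand): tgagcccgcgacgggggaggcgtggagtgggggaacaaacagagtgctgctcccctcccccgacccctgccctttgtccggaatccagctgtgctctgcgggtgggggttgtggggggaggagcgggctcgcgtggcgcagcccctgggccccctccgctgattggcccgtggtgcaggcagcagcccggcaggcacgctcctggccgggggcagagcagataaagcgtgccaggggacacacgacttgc
Neurod1 (chr2:79456637-79456886, minus strand): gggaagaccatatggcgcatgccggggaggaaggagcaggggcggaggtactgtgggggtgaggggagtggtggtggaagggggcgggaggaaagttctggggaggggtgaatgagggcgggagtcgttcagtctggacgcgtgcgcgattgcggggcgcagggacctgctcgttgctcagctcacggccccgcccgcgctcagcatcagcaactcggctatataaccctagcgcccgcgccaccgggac
Nkx2-2 (chr2:147186403-147186652, minus strand): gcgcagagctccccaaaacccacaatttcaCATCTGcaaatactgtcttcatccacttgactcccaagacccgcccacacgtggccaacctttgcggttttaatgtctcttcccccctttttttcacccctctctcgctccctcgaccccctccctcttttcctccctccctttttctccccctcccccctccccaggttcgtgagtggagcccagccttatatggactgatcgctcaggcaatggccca
Chgb (chr2:132781392-132781641, plus strand): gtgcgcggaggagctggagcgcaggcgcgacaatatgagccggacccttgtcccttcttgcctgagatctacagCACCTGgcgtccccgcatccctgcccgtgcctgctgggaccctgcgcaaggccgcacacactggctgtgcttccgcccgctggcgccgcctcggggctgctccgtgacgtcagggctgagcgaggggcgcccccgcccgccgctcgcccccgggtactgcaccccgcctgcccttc
Cck (chr9:121495695-121495944, minus strand): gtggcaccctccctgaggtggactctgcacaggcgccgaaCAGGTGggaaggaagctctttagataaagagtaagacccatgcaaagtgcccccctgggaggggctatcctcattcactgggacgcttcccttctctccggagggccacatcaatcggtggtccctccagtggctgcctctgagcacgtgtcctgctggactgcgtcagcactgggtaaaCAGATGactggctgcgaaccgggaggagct
The N-box CACNAG, a motif of Hes repressors, was also searched on both strands, and matched none of the 5. Neurog3 and Neurod1 held none of these 3 motifs, Nkx2-2 and Chgb held 1 each, and Cck held both E-boxes searched. Of all 32851 RefSeq windows of this length, 14.4% held CAGATG, 17.2% held CAGGTG and 36.7% held CACNAG. Among the windows of the endocrine precursor genes that were peaks with no fold minimum, 11 of 13 genes were matched, with 16 windows, of which 2, 4 and 2 held these motifs in that order. A match is a description of the letters and not a bound site.

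Chgb, which encodes chromogranin B of the hormone granule, had the largest peak of all probe sets. Its probe set 92841_f_at on chip A (gene at chr2:132781642-132795079) read 7.76 and 7.90 at e12.5, 9.71 and 9.74 at e13.5, 9.84 and 9.75 at e14.5, 8.62 and 8.57 at e15.5, and 7.74 and 7.78 at e16.5. The level was already high at e13.5 and was back at the starting level at e16.5. e14.5 was 1.96 ± 0.07 above e12.5 (3.89-fold, limma adjusted p = 5.29e-09) and 2.03 ± 0.07 above e16.5 (4.1-fold, limma adjusted p = 2.11e-09). It was the only probe set of the series that stayed a peak with a 3-fold minimum. The design of this probe set can be shared by similar sequences. Both other Chgb probe sets were dim, with means of 2.99 and 3.86 at e14.5, and differed from the ends by at most 0.16.

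Neurod1, which acts after Neurog3 in the same cells, was also higher at e14.5 than at both ends. Its brighter probe set (92717_at) read 5.03 and 5.06 at e14.5, against 4.10 and 4.27 at e12.5 and 4.40 and 4.34 at e16.5. All arrays lay below the chip median of 5.75, and with no detection calls in the files the background is unknown. The change was 0.86 ± 0.07 against e12.5 (limma adjusted p = 6.17e-06) and 0.67 ± 0.07 against e16.5 (limma adjusted p = 1.86e-05). The second Neurod1 probe set was dimmer still, at 3.88 ± 0.19 (SD, n = 2) at e14.5, and also passed against both ends, by 0.70 and 0.27.

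Nkx2-2, a homeobox factor of endocrine cells, had 8.30 and 8.36 at e14.5, against 7.60 and 7.62 at e12.5 and 6.60 and 6.70 at e16.5. It differed from Neurog3 in that the later end was the lower one: e14.5 was 0.72 ± 0.06 above e12.5 and 1.68 ± 0.06 above e16.5 (limma adjusted p = 1.25e-05 and 6.32e-09). Pax6, needed for islet hormone cells, had 5.62 and 5.59 at e14.5, against 4.99 and 5.02 at e12.5 and 4.87 and 5.15 at e16.5, all below the chip median. It was 0.60 ± 0.10 above e12.5 and 0.59 ± 0.10 above e16.5. Pax4, a factor of the beta cell lineage, had 7.50 and 7.53 at e14.5, against 6.99 and 7.13 at e12.5 and 7.18 and 7.19 at e16.5. Its changes of 0.45 ± 0.06 and 0.33 ± 0.06 passed the adjusted p (0.000372 and 0.00203 with limma) but were under 1.5-fold. Insm1, a zinc finger factor of endocrine precursors, changed by 0.50 ± 0.08 and 0.31 ± 0.08. Its call against e16.5 was lost without e14.5 replicate 2 (0.26, limma adjusted p = 0.1) or without e16.5 replicate 2 (0.25, limma adjusted p = 0.0847).

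**Figure D2:**
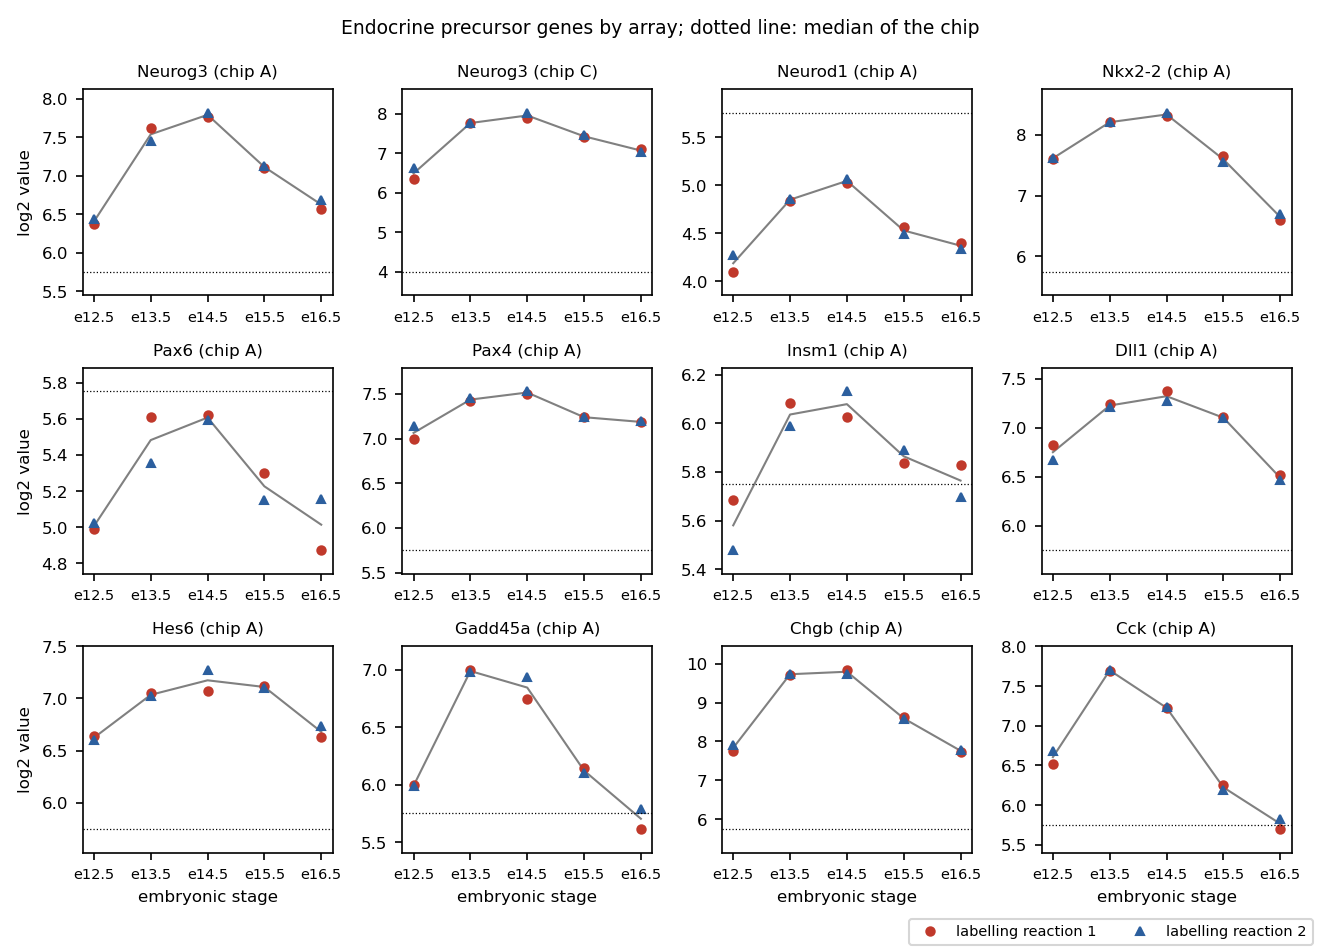
Log2 value of 12 probe sets on each array (y axis) by embryonic stage (x axis). Points are the 2 labelling reactions, lines join their means, and each panel has its own scale. Most panels rise to e14.5 and are lower at e16.5, while Cck and Gadd45a are highest at e13.5.

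Over the list of genes of endocrine precursors, 32 of 38 were measured, and 13 of these (40.6%) were above both ends with no fold minimum, while 1 was below both. Among all genes 1.52% were above both ends and 0.983% below both under the same rule. Those shares stand for 243 and 157 genes, which were 150 and 67 without e14.5 replicate 1, 108 and 93 without e14.5 replicate 2, and 174 and 97 without e12.5 replicate 1. The median gene of the list was 0.40 above e12.5 and 0.34 above e16.5, where the medians of all genes were 0.00. The mean log2 value over the list was 7.22 and 7.28 at e14.5 and 7.24 and 7.23 at e13.5. The list as a whole was thus about as high at e13.5, and its share is not particular to e14.5. This list and all other gene lists below were drawn up with earlier results of these data known. Their counts describe these arrays and are not independent evidence. With only probe sets brighter than the median of their chip, 12 of 27 genes of this list and 296 of 10515 of all genes were above both ends. With the 1.5-fold minimum and all probe sets, 7 members of this list were peaks.

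Besides the genes above, these were Gadd45a, Cck and Vwa5b2, the last of which was chosen for mention after its value was seen, as were the genes named below without a place in the naming rule. Gadd45a, a growth arrest gene, had 6.75 and 6.94 at e14.5, against 5.99 and 5.99 at e12.5 and 5.62 and 5.79 at e16.5, with its highest mean, 6.99, at e13.5. Cck, the peptide hormone cholecystokinin, had 7.22 and 7.23 at e14.5, against 6.52 and 6.69 at e12.5 and 5.70 and 5.83 at e16.5, and was also highest at e13.5, at 7.70. The means of both genes were thus highest at e13.5, and those of Neurog3 at e14.5. On chip C the Neurog3 means were 7.76 at e13.5 and 7.95 at e14.5. The difference in timing between these genes was not tested. Vwa5b2 had 7.89 and 8.02 at e14.5, against 7.07 and 7.11 at e12.5 and 7.37 and 7.33 at e16.5.

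The Notch ligand Dll1 and the Hes-related factor Hes6 were peaks too small for the 1.5-fold minimum. Dll1 had 7.37 and 7.27 at e14.5, against 6.83 and 6.67 at e12.5 and 6.52 and 6.46 at e16.5, changes of 0.57 ± 0.07 and 0.83 ± 0.07. Its 3 other probe sets were dim, at 2.45 to 3.55 at e14.5, and were peaks in no case. Hes6 had 7.07 and 7.27 at e14.5, against 6.64 and 6.61 at e12.5 and 6.63 and 6.73 at e16.5, changes of 0.55 ± 0.07 and 0.49 ± 0.07. Its second probe set did not pass against either end (0.21 and 0.12). These 2 were the only members of the 24 measured Notch pathway genes above both ends (8.33%, against 1.52% of all genes), and no member was below both. The other precursor genes under the 1.5-fold minimum were Pax4 and Insm1, described above, Myt1 (smaller change 0.36) and Pcsk1n (0.35). Upk3b was the 1 member below both ends, by 0.51 against e12.5 and 0.28 against e16.5, and it was not so called without e14.5 replicate 1 or e16.5 replicate 2.

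Not all genes of the lineage followed this course. Of 12 measured later endocrine factors, 4 were above both ends, namely Pax6, Pou3f4, Foxa2 and Insm1, and 9 were higher than at e16.5 while 4 were higher than at e12.5. Among all genes 1.52% were above both ends, 22.8% higher than at e16.5 and 13.7% higher than at e12.5 with no fold minimum. Some genes, such as Insm1, stand in more than 1 list. Pou3f4, a POU homeobox factor, had 5.36 and 5.53 at e14.5, against 4.96 and 4.99 at e12.5 and 4.53 and 4.71 at e16.5. All its arrays lay below the chip median of 5.75, and its highest mean, 5.50, was at e13.5. With only probe sets brighter than the median of their chip, 2 of 9 later factors were above both ends. Isl1, an early islet and mesenchyme factor, had a mean of 5.99 at e14.5 on its brighter probe set, which was 0.16 ± 0.07 below e12.5 without passing the test and 0.74 ± 0.07 above e16.5, while its other probe set did not pass against e16.5 (-0.05).

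Among islet hormones, 2 of 14 were above both ends, Cck and gastrin (Gast), and none was below both. Gast had 6.94 and 6.92 at e14.5 on its brightest probe set, against 6.29 and 6.17 at e12.5 and 6.52 and 6.49 at e16.5. Of its 3 other probe sets, 2 were also peaks and 1 was flat. Glucagon was highest at e13.5, with a mean of 12.69, and lower at each later stage. Gcg had 12.21 and 12.23 at e14.5, against 12.36 and 12.38 at e12.5 and 11.69 and 11.55 at e16.5, so that e14.5 was 0.60 ± 0.07 above e16.5 and did not pass against e12.5 (-0.15 ± 0.07). After a further quantile normalization the change against e12.5 was -0.87 and passed (limma adjusted p = 3.81e-06). Ins2 rose throughout: it had 10.78 and 10.73 at e14.5, against 5.26 and 5.31 at e12.5 and 12.39 and 12.29 at e16.5. Its probe set can be shared by similar sequences such as Ins1.

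Among all genes 1.52% were above both ends and 0.983% below both. Of 33 measured genes of the neuroendocrine secretory pathway, 5 (15.2%) were above both ends and none below both. Apart from Chgb and Pcsk1n these were Abcc8, the sulfonylurea receptor subunit of the beta cell potassium channel (smaller change 0.47), Cadps, a factor that primes granules (0.39), and the synaptotagmin Syt13 (0.23). Without e14.5 replicate 1 there were 3 above both ends. A second Abcc8 probe set was flat against e12.5 and 0.36 lower than at e16.5. Chga, the other chromogranin, had a mean of 7.95 at e14.5, 0.83 ± 0.08 above e12.5, and did not pass against e16.5 (0.19 ± 0.08, limma adjusted p = 0.107), unlike Chgb. The difference between Chgb and Chga was not tested.

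**Figure D3:**
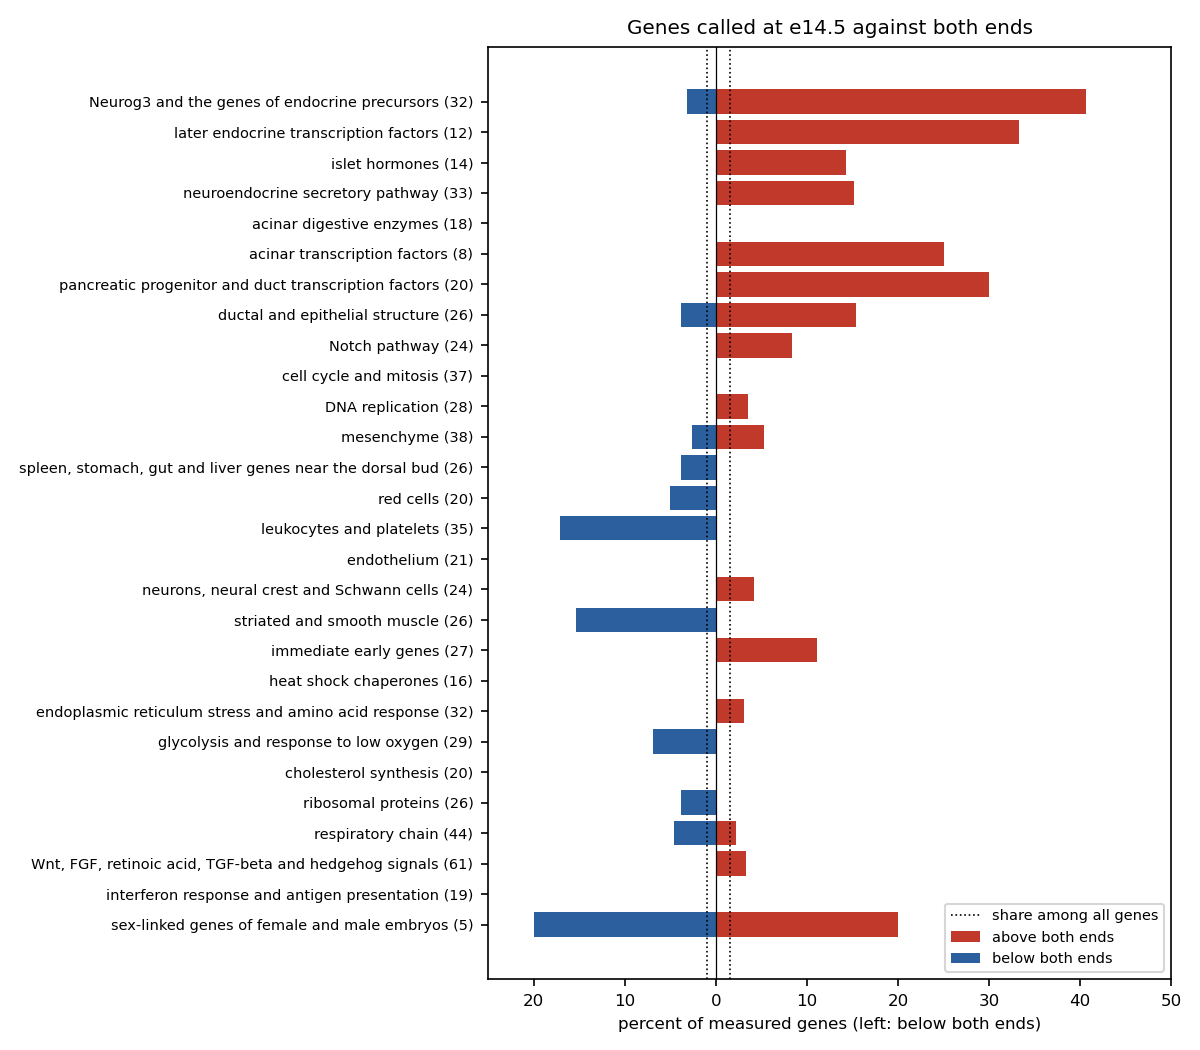
Percent of the measured genes of each list (number in brackets) that were above both ends (red, to the right) or below both ends (blue, to the left) at e14.5 with an adjusted p under 0.05 and no fold minimum. Dotted lines mark the shares among all genes, 1.52% and 0.983%, and the endocrine precursor list has the longest red bar at 40.6%.

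Outside the endocrine lists, the largest peak was Cym, the gene of the milk-clotting protease chymosin. Its 1 probe set (115729_at on chip B, gene at chr3:107211295-107221732) read 5.26 and 5.65 at e12.5, 6.51 and 6.39 at e13.5, 7.80 and 7.95 at e14.5, 7.48 and 7.50 at e15.5, and 6.56 and 6.46 at e16.5. The level was near the chip median at e12.5 and highest at e14.5, and at e16.5 it was still above all e12.5 arrays. e14.5 was 2.42 ± 0.10 above e12.5, or 5.35-fold, and 1.36 ± 0.10 above e16.5, or 2.57-fold (limma adjusted p = 4.88e-10 and 1.14e-07).

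Myb, a transcription factor known from blood progenitors and from dividing epithelium, was on a plateau rather than at a single high stage. Its probe set 92644_s_at read 5.35 and 5.71 at e12.5, 6.03 and 6.09 at e13.5, 6.63 and 6.61 at e14.5, 6.79 and 6.60 at e15.5, and 5.56 and 5.51 at e16.5. e14.5 was 1.09 ± 0.10 above e12.5 and 1.08 ± 0.10 above e16.5 (limma adjusted p = 2.1e-05 and 1.04e-05). The e12.5 reactions lay 0.25 (SD) about their mean, and without e12.5 replicate 1 the change fell under 2-fold. The other Myb probe set was dim and flat, with a mean of 3.06 at e14.5.

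Of the other 2-fold peaks, those of Prdm16 and Blvrb depended on single replicates or probe sets. Prdm16, a zinc finger regulator, had 6.07 and 6.04 at e14.5, against 4.61 and 5.44 at e12.5 and 5.19 and 4.45 at e16.5, so the reactions of both ends lay far apart. Its change against e12.5 was 1.03 ± 0.26 (limma adjusted p = 0.0118), and it did not pass with p adjusted within each chip (0.0514) or without either e14.5 replicate or e12.5 replicate 1 (0.0599 to 0.134). Without e16.5 replicate 2 it was under 2-fold. Blvrb, the gene of biliverdin reductase B, was a peak on the probe set 167261_f_at, with 5.98 and 6.36 at e14.5, against 5.05 and 5.24 at e12.5 and 4.71 and 4.78 at e16.5. Its brightest probe set went the other way, with 7.16 and 7.12 at e14.5, against 7.51 and 7.56 at e12.5 and 7.43 and 7.41 at e16.5, and the other one did not pass (-0.16 and -0.10), so no direction is given for the gene. The peak was under 2-fold without e12.5 replicate 1 or e14.5 replicate 2. The unnamed probe set 160906_i_at, a peak whichever replicate was left out, had 6.07 and 6.18 at e14.5, against 4.88 and 4.80 at e12.5 and 3.45 and 3.42 at e16.5.

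The 1.5-fold minimum added further genes that were higher in the middle on their brightest probe set. Osr2, a zinc finger factor of mesenchyme, had 7.33 and 7.13 at e14.5, against 5.63 and 5.95 at e12.5 and 6.32 and 6.55 at e16.5. Mid1ip1, which activates fatty acid synthesis, was a peak on 2 probe sets, and on the brighter it had 8.26 and 8.35 at e14.5, against 7.18 and 7.16 at e12.5 and 7.56 and 7.51 at e16.5. Another, dim Mid1ip1 probe set was 0.35 lower than at e16.5. Sbspon, Wwc1 and the tight junction gene Cldn4 had smaller changes of 0.75, 0.64 and 0.65, with all arrays of e14.5 above all arrays of both ends. Wwc1 encodes a scaffold of the Hippo pathway. Nol4 was the last such gene, with a smaller change of 0.62. Tfrc, the transferrin receptor, was a peak of 0.74 on a dim chip C probe set and, with no fold minimum, on a dim chip A one (0.35 and 0.51), while its brightest one differed from e16.5 by 0.07 without passing and another was 0.48 lower than at e12.5.

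**Figure D4:**
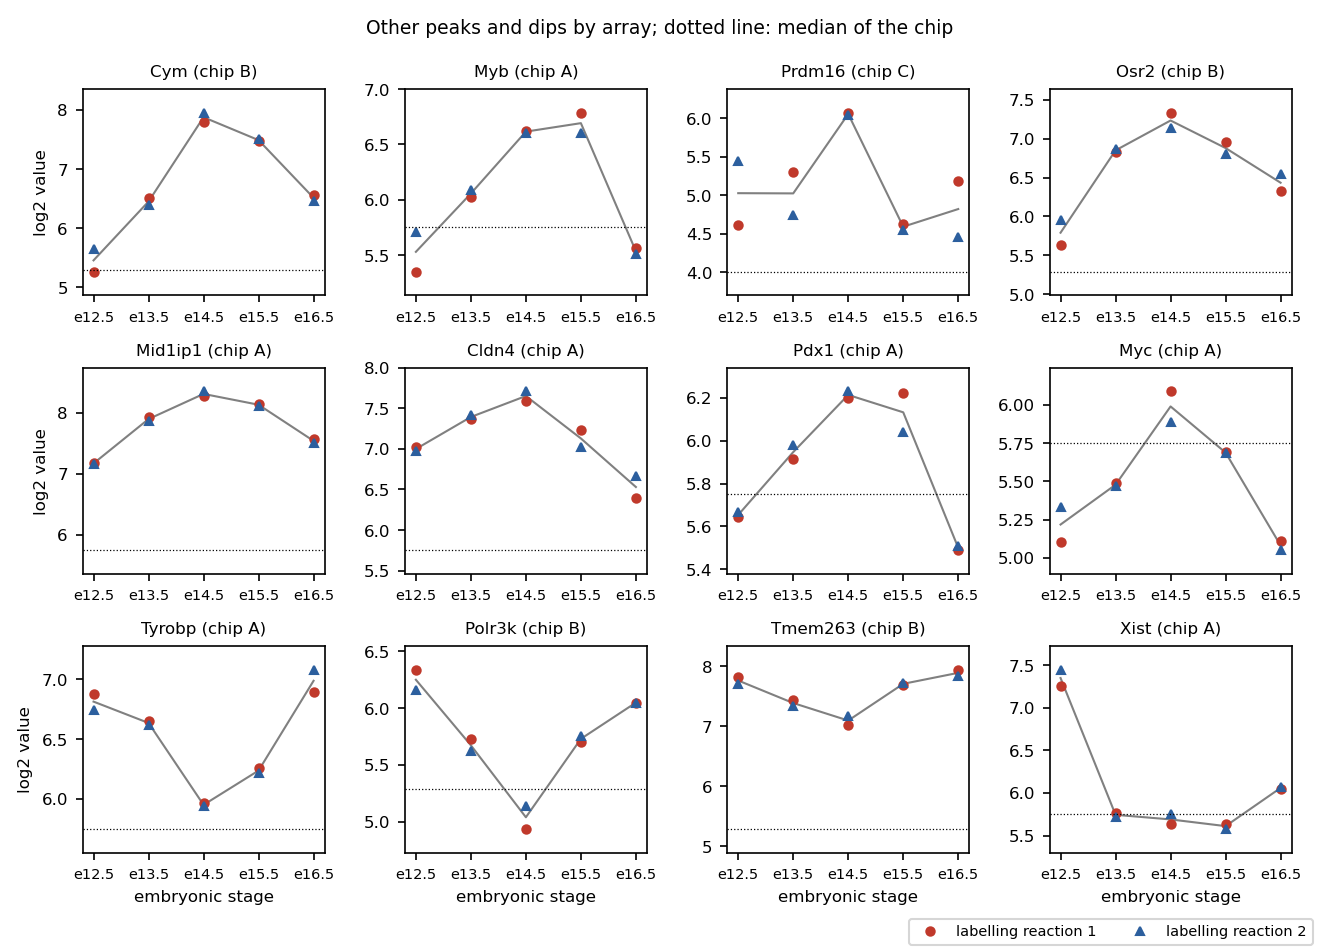
Log2 value of 12 further probe sets on each array (y axis) by embryonic stage (x axis), drawn like the panels of the endocrine genes. Cym, Osr2 and Mid1ip1 have both e14.5 points at the top, Myb stays as high at e15.5, Prdm16 has reactions far apart at e12.5, e13.5 and e16.5, and Tyrobp and Polr3k are lowest at e14.5.

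Factors of the progenitor and duct epithelium gave 6 of 20 measured genes (30%) above both ends and none below both, against 1.52% and 0.983% of all genes. Without e12.5 replicate 1 there were 3 above both ends, and without e14.5 replicate 2 there were 4. Pdx1, required for the growth of the pancreatic bud, had 6.20 and 6.23 at e14.5, against 5.64 and 5.67 at e12.5 and 5.49 and 5.51 at e16.5, changes of 0.56 ± 0.07 and 0.71 ± 0.07 (limma adjusted p = 0.000144 and 1.15e-05). Myc, which drives growth and division, had 6.09 and 5.89 at e14.5, against 5.10 and 5.33 at e12.5 and 5.11 and 5.05 at e16.5. Both had their highest mean at e14.5, with e15.5 close behind for Pdx1 (6.13). The other members were Foxa2 (0.39), Prox1 (0.32), Gata6 (0.29) and Nr2f6 (0.24), given by their smaller change. All Prox1 arrays lay below the chip median of 5.75. Sox9, a marker of progenitors and later of ducts, was not a peak: on its brightest probe set it had 7.47 and 7.40 at e14.5, against 7.61 and 7.39 at e12.5 and 6.80 and 6.69 at e16.5.

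Of 26 ductal and epithelial genes, 4 (15.4%) were above both ends, Cldn4, keratin 7 (Krt7), Cldn7 and Cldn3, against 1.52% of all genes. Car2 was below both, but not without e12.5 replicate 1 or e14.5 replicate 1. Krt7 had 8.21 and 8.25 at e14.5, against 7.66 and 7.68 at e12.5 and 7.71 and 7.59 at e16.5. Cldn7 was above both ends on all 3 of its probe sets, with smaller changes from 0.21 to 0.61, and its mean was higher still at e15.5 on each of them. Cldn3 passed narrowly against e16.5 (0.23 ± 0.08, limma adjusted p = 0.0411), and its dimmer probe set did not pass.

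The lists of digestive enzymes and cell division genes gave almost no peaks, as did all genes, of which 1.52% were above both ends and 0.983% below both. None of 18 acinar enzyme genes was above or below both ends. All 18 were lower than at e16.5, with a median change of -3.11, and 12 were higher than at e12.5, with a median change of 1.19 over the list. Among all genes 16% were lower than at e16.5 and 13.7% higher than at e12.5. Among the acinar factors, Ptf1a rose through e14.5, with 7.96 and 8.11 there, against 7.10 and 7.33 at e12.5 and 9.15 and 9.17 at e16.5, and 2 of 8 factors were above both ends, Prox1 and Creb3l1. Creb3l1 (smaller change 0.21) did not pass after quantile normalization, and its highest mean, 8.61, was at e15.5. None of the 8 was above both ends without e12.5 replicate 1 or e14.5 replicate 1, and 1 was without e12.5 replicate 2, e14.5 replicate 2 or e16.5 replicate 2.

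None of 37 cell cycle genes was above or below both ends. There were 30 higher than at e16.5, with a median change of 0.57. Against e12.5, 1 was higher and 8 were lower, with a median change of -0.06. Among all genes 22.8% were higher than at e16.5, 13.7% higher than at e12.5 and 14.7% lower than at e12.5. Cyclin A2 (Ccna2) had 9.08 and 9.01 at e14.5, against 8.89 and 8.85 at e12.5 and 8.58 and 8.76 at e16.5, and did not pass against e12.5. DNA replication genes were alike, with 25 of 28 higher than at e16.5 and a median change of 0.00 against e12.5, and Fen1, a flap endonuclease, was the 1 member above both ends, by 0.25 and 0.48, and did not pass against e12.5 without either e12.5 replicate or without e14.5 replicate 2 (limma adjusted p 0.0788 to 0.211). The Fen1 mean was higher still at e15.5, at 7.12. The medians of both lists against e12.5 thus lay near 0, where that of the endocrine precursor list was 0.40.

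**Figure D5:**
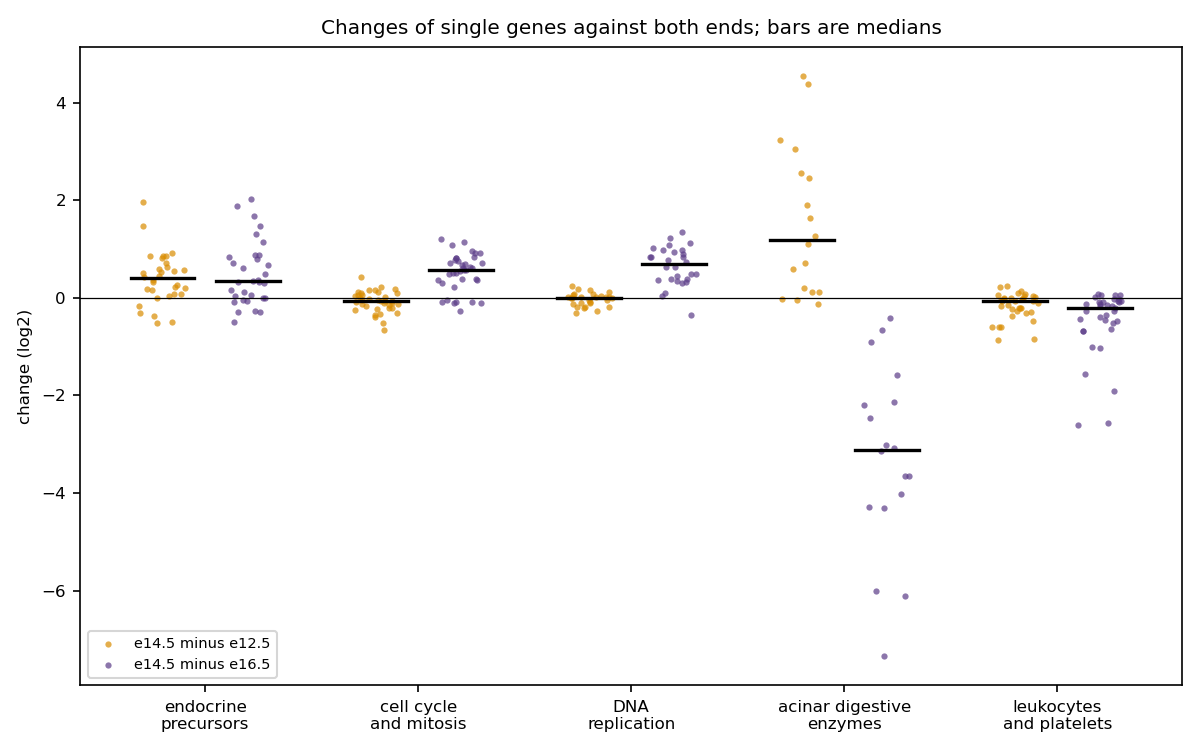
Change of each measured gene of 5 lists at e14.5 (y axis, log2) against e12.5 (orange) and against e16.5 (purple), with bars at the medians. The endocrine precursors have both medians above 0 (0.40 and 0.34), the division lists only against e16.5, and the acinar enzymes lie between, above e12.5 and below e16.5.

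Dips were fewer. The only 2-fold dip was the probe set 162966_i_at, 1 of 4 annotated to Polr3k, the gene of a small subunit of RNA polymerase III, with 4.94 and 5.14 at e14.5, against 6.34 and 6.16 at e12.5 and 6.05 and 6.05 at e16.5. Without e14.5 replicate 1 it was not called at 2-fold. The brightest Polr3k probe set did not pass against e16.5 (-0.14 ± 0.07), another was lower than at both ends by 0.31 and 0.59, and the fourth did not pass against e12.5. Sec62, a part of the protein translocation machinery, was likewise a dip on its brightest probe set (162967_r_at), with 8.48 and 8.58 at e14.5, against 9.33 and 9.27 at e12.5 and 9.49 and 9.34 at e16.5. Another Sec62 probe set was above both ends (0.29 and 0.33), so the gene has no single direction here. The probe sets 162966_i_at and 162967_r_at have consecutive numbers and were both lowest at e14.5, and the platform annotation can be old, so which gene each of them measures is uncertain. Tmem263 had 7.02 and 7.16 at e14.5, against 7.81 and 7.70 at e12.5 and 7.94 and 7.84 at e16.5, on its 1 probe set.

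Tyrobp, the signalling adaptor of macrophages and other leukocytes, had 5.96 and 5.94 at e14.5, against 6.88 and 6.75 at e12.5 and 6.90 and 7.08 at e16.5. It was 0.86 ± 0.07 below e12.5 and 1.04 ± 0.07 below e16.5 (limma adjusted p = 9.55e-06 and 1.04e-06), with no array of e14.5 reaching those of the ends. Of 35 measured leukocyte and platelet genes, 6 (17.1%) were below both ends, where 0.983% of all genes were: Tyrobp, the neutrophil gene S100a8, Coro1a, Laptm5, Ppbp and the complement gene C1qa. None was above both, near the share of 1.52% among all genes. S100a8 had 6.05 and 6.13 at e14.5, against 6.47 and 6.48 at e12.5 and 8.69 and 8.71 at e16.5. Its mean was lower still at e15.5, at 5.86. C1qa had 7.02 and 7.08 at e14.5, against 7.23 and 7.27 at e12.5 and a mean of 8.97 at e16.5, so for both the step was mostly on the later side. Without either e12.5 replicate, 3 members were below both ends, without e14.5 replicate 1 there were 2, and without e14.5 replicate 2 there were 4. Lyl1, a blood cell factor outside this list, was below both ends on 2 of its 3 probe sets, by a smaller change of 0.64 and 0.33.

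The mean log2 value over the genes of the leukocyte list was 5.42 and 5.43 at e14.5, against 5.60 and 5.59 at e12.5 and 5.90 and 5.92 at e16.5. It was as low at e15.5, with 5.45 and 5.42. Of the 35 genes of the list, 15 lay above the chip median at e14.5, 15 at e15.5, 17 at e12.5 and 20 at e16.5. Whether the number of blood cells left in the dissected buds has a part in any result was not tested. Genes of striated and smooth muscle had 4 of 26 members (15.4%) below both ends, Acta2, Myl1, Tnnt1 and Tnni1, against 0.983% of all genes. None was above both. Without either e12.5 replicate, 2 were below both ends, and without either e14.5 replicate, 1 was. Smooth muscle actin (Acta2) had 6.61 and 6.62 at e14.5, against 7.08 and 7.13 at e12.5 and 7.14 and 7.07 at e16.5. Its lowest mean, 6.35, was at e13.5.

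Other lists are given here and below, beside shares among all genes of 1.52% above both ends and 0.983% below both. Of 38 mesenchyme genes 2 (5.26%) were above both ends, collagens Col3a1 and Col6a1, and Acta2 was below both. Without e14.5 replicate 2 or either e16.5 replicate, 1 gene was above both. Col3a1 was above both ends on all 3 of its probe sets, and on the brightest it had 9.92 and 9.87 at e14.5, against 9.38 and 9.56 at e12.5 and 9.37 and 9.28 at e16.5. Of 61 signalling genes 2 (3.28%) were above both ends, the Wnt inhibitor Sfrp2 (0.45) and Id4 (0.41), and none below both. Of 27 immediate early genes 3 (11.1%) were above both ends, Myc, Ier2 and Egr1, and none below both. Heat shock chaperones, cholesterol synthesis, endothelium and interferon response genes had no member above or below both ends among 16, 20, 21 and 19 measured. With bright probe sets alone, each of the last 2 lists had 1 dip, and endothelium also had 1 after further quantile normalization. Leaving out an e16.5 replicate also moved both of these lists from none. At the shares among all genes, lists of this size can hold none.

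Of 32 stress and amino acid response genes, Psat1, an enzyme of serine synthesis, was the 1 above both ends (0.56), with no such course on its 3 dimmer probe sets. Its mean was higher still at e15.5, at 8.97. Erbb3 was the 1 of 24 neural genes above both ends (0.24), and its highest mean, 7.81, was at e13.5. Below both ends were 2 of 29 glycolysis genes (Pgk1 at -0.33 and Hk2 at -0.24), 2 of 44 respiratory chain genes beside 1 above both, 1 of 26 ribosomal protein genes, 1 of 20 red cell genes (Car2, which also stands in the ductal list) and 1 of 26 stomach, gut, spleen and liver genes (Nkx2-5). Each of these counts below both ends was lower by 1 or 2 without some e12.5 or e14.5 replicate, and Erbb3 was not above both ends without e12.5 replicate 2 or e14.5 replicate 2.

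The embryonic globin gene Hbb-bh1 had 7.14 and 7.15 at e14.5, against 8.25 and 8.10 at e12.5 and 6.85 and 6.72 at e16.5, between both ends. The mean level of the red cell list was 7.18 and 7.21 at e14.5, against 7.31 and 7.26 at e12.5 and 6.94 and 6.95 at e16.5, also between them, and its part in other results was not tested.

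Some genes of the sex chromosomes also differed between the pools. Of 5 measured, 1 was above both ends, 1 was below both and 3 were neither (1.52% and 0.983% of all genes were above and below both). Xist, the RNA of the inactive X chromosome, had 5.63 and 5.75 at e14.5, against 7.25 and 7.45 at e12.5 and 6.05 and 6.07 at e16.5, on its brighter probe set. It was 1.66 ± 0.07 below e12.5 and 0.37 ± 0.07 below e16.5, and 1 of its 2 probe sets was called below both ends. Its mean on the brighter probe set was lower still at e15.5, at 5.61. Kdm5d, a Y chromosome gene, had 5.33 and 5.42 at e14.5 on its brightest probe set, against 5.04 and 5.01 at e12.5 and 4.74 and 4.58 at e16.5. Kdm5d had both ends below the chip median of 5.29 and its highest mean, 5.55, at e13.5. It was above both ends, but not without e14.5 replicate 2, and 1 of its 3 probe sets was so called. The part of these differences in other results was not tested.

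The same rule applied to the neighbouring stages gave 3 peaks (0.00817%) and 0 dips at 2-fold for e13.5, 7 peaks and 1 dip for e14.5, and 3 peaks (0.00817%) and 0 dips for e15.5. With the 1.5-fold minimum there were 17 peaks at e13.5 (0.0463%), 33 at e14.5 and 29 at e15.5 (0.079%), and with no minimum 273 (0.744%), 452 and 601 (1.64%) in that order. The ends are shared by the 3 stages, so the counts stand side by side without a test. The 2-fold peaks of e13.5 were Chgb, Cck and a Bmpr2 probe set, and those of e15.5 were Myb, and probe sets of Hacd3 and Mtm1.

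A curve fitted to the 5 pool means, with the scatter of the pools about it as the error, tested the bend of the course without using the labelling error. The fit leaves 2 residual degrees of freedom per probe set before moderation. Its scatter also holds any misfit of the curve, so it is not a measure of the spread between pools of 1 stage. A course that goes one way throughout can also bend, so a dome or bowl need not be a peak or dip, and the acinar enzymes had 3 domes and 4 bowls with neither. In it 108 probe sets (0.294%) had a dome, and 78 (0.213%) had a bowl. Both Neurog3 probe sets had one, with a fitted height at e14.5 above the line between both ends of 1.19 ± 0.16 on chip A (limma adjusted p = 0.0417) and 1.14 ± 0.16 on chip C (limma adjusted p = 0.0333). Nkx2-2 (1.12 ± 0.09, limma adjusted p = 0.0114), Cym (1.64 ± 0.21, limma adjusted p = 0.0214), Osr2 (1.07 ± 0.11, limma adjusted p = 0.0134) and Dll1 (0.71 ± 0.07, limma adjusted p = 0.0179) also passed. Chgb had the greatest height of the named peaks (1.92 ± 0.29) and did not pass (limma adjusted p = 0.0546), nor did Neurod1 (0.67 ± 0.14, limma adjusted p = 0.103). Of the endocrine precursor list 6 of 32 genes had a dome and none a bowl, where 0.357% of all genes had a dome and 0.294% a bowl. These counts depend on single replicates: without e15.5 replicate 1, 8 probe sets had a dome and 13 a bowl.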

How the data were processed

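RNA of pooled dorsal pancreata was labelled with biotin and hybridised to Affymetrix chips, per the labels' protocols. The values the authors deposited are log2 expression, which per the submitters' processing notes came from RMA. Their log base was inferred from the range, and no software version is given in the sources used here. RMA subtracts background, quantile-normalizes the arrays and summarises probes, so a change in total RNA per cell is not seen. Each chip was taken as normalized on its own. The files hold no detection calls, and the number of arrays limits precision.

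Symbols came from GEO's platform annotation, updated through Entrez identifiers to RefSeq GRCm38.p6. Of 36701 probe sets, 29131 had 1 symbol, 724 several and 6846 none. For counts of genes, the probe set with the highest mean over the 10 arrays stood for each of 15964 genes, also across chips.

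For each chip, limma 3.58.1 in R 4.3.3 fitted the 10 arrays with stage as a factor (lmFit, eBayes). Benjamini-Hochberg adjustment ran over all 36701 probe sets at once. The dome or bowl was the quadratic term of a curve over the 5 pool means. No sample was left out. The functions were tested on simulated data. Tables and plots used Python 3.11.15 with pandas 2.3.3, numpy 2.4.6 and matplotlib 3.10.9.

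The members and gene lists were chosen with earlier results of these data known. The naming rule took the 15 largest peak and the 15 largest dip genes at 2-fold, filled at 1.5-fold, up to 6 passing members of each list, or 2 where none passed, and 12 landmark genes. Alternatives were other scalings, a filter on dim probe sets, other fold minimums, adjustment within chips, other end stages, a replicate block, and each replicate of a stage left out on all 3 chips at once. Replicate numbers were checked for pairing: over 30 pairs of stages on a chip, the correlation of same-numbered deviations was -0.18 to 0.11, with 1 above 0.1, so they were not treated as pairs. Promoter windows were RefSeq's, without the transcribed bases.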

Additional observations from a re-analysis of the deposited data

How the results depend on the processing

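The 7 peaks and 1 dip at 2-fold were the same probe sets after further quantile normalization, median centring, an intensity trend in the prior variance and a fit of the 3 stages alone, and with the replicate block, which gave 7 peaks and 1 dip and, for the single comparisons, 105, 121, 277 and 296 calls. Bright probe sets alone gave 6 peaks, without 160906_i_at, and p adjusted within chips gave 6, without Prdm16. Leaving out 1 replicate of a stage, on all 3 chips, gave 4 to 7 peaks and 0 to 1 dips, and Chgb, Cym, the chip A probe set of Neurog3 and the unnamed 160906_i_at were peaks each time. The 4 peaks came without e12.5 replicate 1, and no dip was left without e14.5 replicate 1. The ranges for higher and lower calls were 101 to 107 and 107 to 140 against e12.5, and 263 to 308 and 293 to 301 against e16.5. With e13.5 in place of e12.5 there were 3 peaks (160906_i_at, Cym and Blvrb) and 0 dips. With e15.5 in place of e16.5 there were 2 (Chgb and Prdm16) and 0. With the mean of the 3 middle stages there were 1 (Chgb) and 0. Neurog3 was thus a 2-fold peak with none of these other stages. The fold minimum set most counts. At 1.5-fold there were 33 peaks, 5 dips, 362 and 737 calls against e12.5 and 1587 and 774 against e16.5. With no minimum there were 452 peaks, 272 dips, 4299 and 3965 calls and 6457 and 5033 calls. At 3-fold there were 1 peak, 0 dips, 42 and 16 calls and 31 and 122 calls. Domes numbered 64 after median centring, 33 and bowls 12 among bright probe sets, and 203 domes with p adjusted within each chip. Leaving out 1 replicate gave 8 to 151 domes and 13 to 101 bowls: without e15.5 replicate 1 there were 8 and 13, and without e14.5 replicate 2 there were 66 domes. The cause of these moves was not tested. Of 2392 values of 71 named genes under alternatives, 2328 kept their direction and call, 44 no longer passed, 13 newly passed and 7 changed sign without passing (limma adjusted p 0.672 to 0.976). These were Sox9 against e12.5 (0.059 after quantile normalization, and -0.17 to 0.047 over the left-out replicates), Rps6 (-0.095 to 0.0074 against e12.5 and -0.12 to 0.0049 against e16.5), Irf9 against e16.5 (-0.16 to 0.010) and Pmvk against e16.5 (-0.21 to 0.034). Peaks of the endocrine precursor list numbered 12 to 13 over the alternatives, and dips of the leukocyte list 2 to 7. The ranges of these 2 lists and the values of the named genes do not take in the other end stages or fold minimums. With e13.5 in place of e12.5, Cck and Gadd45a could not be peaks, since their means were higher at e13.5 than at e14.5. With 1 pool per stage, no alternative measures the spread between litters.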
